A study of Mus musculus with 62 samples.

Results

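The lowest oral dose of a polychlorinated biphenyl (PCB) mixture was compared with vehicle in the liver of female mice of the inbred strain C57BL/6 by RNA sequencing. Libraries were chosen by their labels as liver with a treatment of 0.1 or Vehicle, which gave 4 libraries at 0.1 mg/kg (animals 23, 25, 28 and 29) and 4 vehicle libraries (animals 3, 4, 7 and 8), 8 of the 62 libraries in the series. The dosed mice received the MARBLES mixture by mouth, and the vehicle mice received a dose of 0 mg/kg. The same series holds 12 liver libraries of the higher doses, 6 each for 1 and 6 mg/kg, and libraries from the prefrontal cortex and the striatum. No genetic modification is named for any group, and by their labels the groups share the strain and the sex and differ by dose. The age, the number and spacing of doses, the hour of tissue collection and the composition of the vehicle are not given in the sources used here. The labels name no separate culture, litter or animal beyond the number in each library's title, which is used here as the animal number, so p-values measure the spread between these libraries.

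PCBs are persistent chlorinated industrial compounds that reach the liver after ingestion. Planar congeners bind the aryl hydrocarbon receptor, which induces Cyp1a genes, and other congeners activate the receptors CAR and PXR, which induce Cyp2b and Cyp3a genes. The liver also runs its own circadian clock. In that clock the activators encoded by Arntl, Clock and Npas2 bind E-box elements and drive the repressors encoded by the Per and Cry genes, the nuclear receptors Nr1d1 and Nr1d2, and output regulators such as Dbp and Tef, which act through D-box elements. Cytosolic heat shock chaperones fold and rescue proteins, and their genes are induced by heat shock factor through repeats of the GAA unit. In bulk tissue, fewer cells of a type and less RNA per cell cannot be told apart.

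The 8 libraries were of like depth. Total counts ran from 9.03 to 10.12 M (10⁶ counts) at 0.1 mg/kg and from 8.95 to 10.18 M in vehicle (two-sided exact permutation test, p = 0.629, where the smallest p that 4 against 4 allows is 0.0286). Levels are given as CPM, counts per 10⁶ as scaled by edgeR, which are not corrected for gene length. Summed CPM of 10 hepatocyte markers ran from 112666 to 132061 at 0.1 mg/kg and from 121017 to 135680 in vehicle, so the libraries carried the tissue that their labels name. Markers of other tissues were uneven within the groups. Of 5 red cell genes 3 were tested, and these summed to 473.1 CPM in animal 23 and to 44.06 to 75.68 CPM in the other dosed animals, against 47.84, 59.86, 1174 and 3067 CPM in vehicle animals 3, 4, 7 and 8. All 3 were lower at 0.1 mg/kg in value (list median log2 fold change -2.75), none at an unadjusted p under 0.05 with edgeR and 2 with DESeq2. The edgeR count was 2 without any one of vehicle animals 3 and 4 and dosed animal 23, and 3 without both vehicle animals 3 and 4. The median was -1.38 without vehicle animal 8 and -4.22 without dosed animal 23. The part of the red cell genes in the results was not tested. Of 11 brain markers 10 were tested, and these summed to 9.288 to 61.89 CPM at 0.1 mg/kg and to 10.23 to 96.18 CPM in vehicle. None of the adipose or muscle markers had enough counts to be tested.

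Of 12968 liver genes tested, Trib1 and Usp2 rose at 0.1 mg/kg and none fell, a called share of 0.0154% (edgeR quasi-likelihood test over all 20 liver libraries, Benjamini-Hochberg adjusted p under 0.05). At an unadjusted p under 0.05, 334 genes (2.58%) were higher and 198 (1.53%) were lower. The median log2 fold change over all tested genes was -0.001. All 4 dosed libraries lay above all 4 vehicle libraries for 277 genes (2.14%) and below them for 258 genes (1.99%).

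Trib1 (Entrez 211770, chromosome 15, 59648654 to 59657099 in GRCm38.p6) encodes a pseudokinase scaffold that hands C/EBP alpha to the ubiquitin ligase Cop1, and it is known in the liver for its part in lipid metabolism. It measured 19.5, 16.6, 20.2 and 19.4 CPM in vehicle animals 3, 4, 7 and 8, and 40.0, 37.9, 45.1 and 37.3 CPM in animals 23, 25, 28 and 29 at 0.1 mg/kg. The groups were tight and did not overlap, with every dosed library far above the highest vehicle library. The means were 18.92 ± 1.559 and 40.07 ± 3.52 CPM (SD, n = 4 each), a 2.12-fold difference (log2 fold change 1.08, SE 0.155, edgeR adjusted p = 0.00635). Leaving out each library in turn gave log2 fold changes from 1.02 to 1.12, and the call was lost without vehicle animal 4 or dosed animal 28 (highest edgeR adjusted p = 0.0808). The higher doses gave like levels, from 26.99 to 41.41 CPM at 1 mg/kg and from 30.36 to 41.83 CPM at 6 mg/kg. Against the same vehicle libraries the log2 fold changes were 1.08, 0.80 and 1.02 at 0.1, 1 and 6 mg/kg. Of 6 tested genes in a list of Tribbles pseudokinases and their partners, Trib1 alone passed. Its relatives Trib2 and Trib3 had log2 fold changes of 0.00 and 0.00, and its partners Cop1, Cebpa and Cebpb had -0.24, 0.11 and 0.15. The values of Cebpa and Cebpb changed sign when some single libraries were left out.

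Usp2 (Entrez 53376, chromosome 9, 44067021 to 44095627) encodes a deubiquitinating enzyme that the clock controls in many tissues and that acts on clock and metabolic proteins. Vehicle animals 3, 4, 7 and 8 had 3.87, 7.65, 6.23 and 6.19 CPM, and dosed animals 23, 25, 28 and 29 had 13.1, 22.1, 43.2 and 41 CPM. The groups did not overlap, but the dosed libraries were spread, with animals 28 and 29 well above animals 23 and 25. The means were 5.987 ± 1.564 and 29.86 ± 14.65 CPM (SD, n = 4 each), and the log2 fold change was 2.32 (SE 0.389, edgeR adjusted p = 0.0387), a 4.99-fold difference. The call was weaker than that of Trib1: it held in 2 of the 8 fits that left out a library, with log2 fold changes from 2.09 to 2.57 and adjusted p-values from 0.0072 to 0.217, and it was lost in the fit on these 8 libraries alone (edgeR adjusted p = 0.113). Usp2 measured 8.823 to 26.81 CPM at 1 mg/kg and 15.3 to 30.35 CPM at 6 mg/kg, so its highest libraries in the liver were at the lowest dose.

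**Figure D1:**
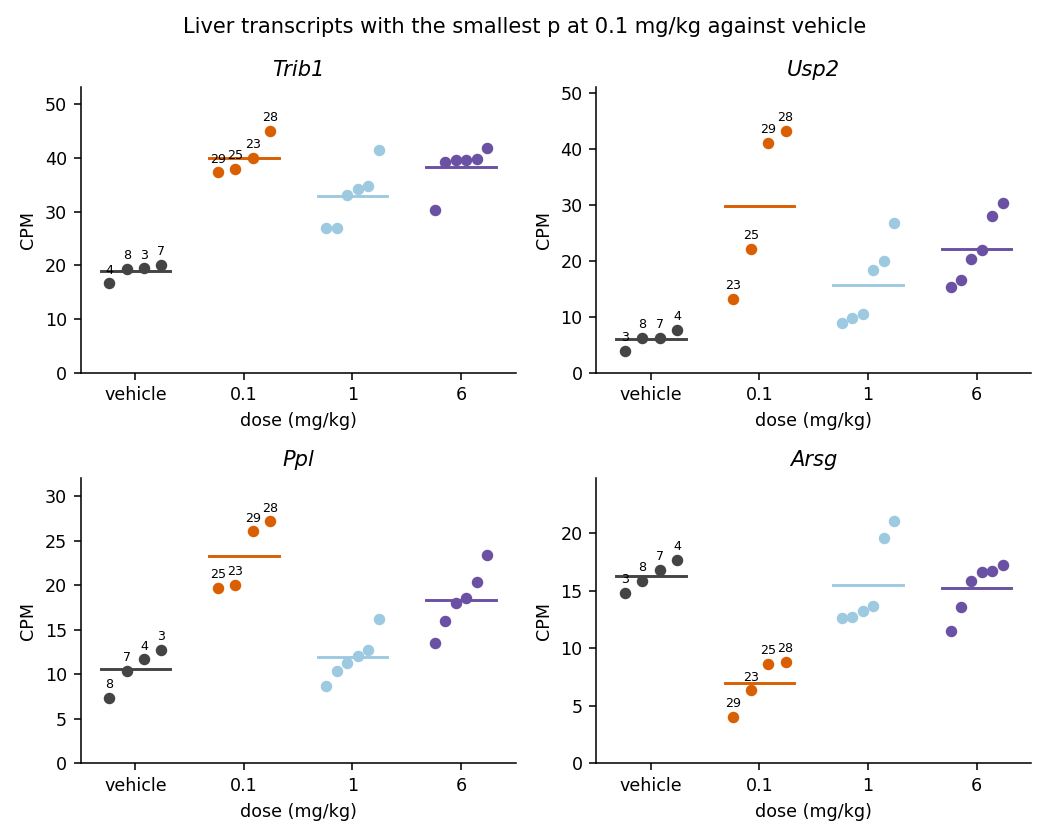
CPM (y axis) of Trib1, Usp2, Ppl and Arsg in each liver library against dose in mg/kg (x axis); points are libraries, numbers are animals of the vehicle and 0.1 mg/kg groups, and bars are group means. At 0.1 mg/kg Trib1 lay between 37.3 and 45.1 CPM against 16.6 to 20.2 CPM in vehicle, and Arsg lay between 4.02 and 8.80 CPM, under every library of the other groups.

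The next genes in order of p did not pass, though their libraries separated fully. Ppl, which encodes the cytoskeletal linker periplakin, had 12.8, 11.7, 10.3 and 7.38 CPM in vehicle and 20, 19.8, 27.2 and 26.1 CPM at 0.1 mg/kg (log2 fold change 1.14, SE 0.213, edgeR adjusted p = 0.0743). Its lowest dosed library was above every vehicle library, while the 1 mg/kg libraries, at 8.726 to 16.25 CPM, overlapped vehicle. The 6 mg/kg libraries, at 13.47 to 23.4 CPM, were again all above vehicle, and Ppl passed there (log2 fold change 0.79, SE 0.198, edgeR adjusted p = 0.0367). Arsg encodes a lysosomal sulfatase that acts on heparan sulfate. Its levels were 14.8, 17.7, 16.8 and 15.8 CPM in vehicle and 6.35, 8.62, 8.80 and 4.02 CPM at 0.1 mg/kg (log2 fold change -1.23, SE 0.23, edgeR adjusted p = 0.0743). All 4 dosed libraries were below all vehicle libraries, and the 12 libraries of the higher doses, at 11.48 to 21.02 CPM, were above all 4 as well. Against vehicle, Arsg had log2 fold changes of -1.23, -0.07 and -0.10 at 0.1, 1 and 6 mg/kg. Ppl and Arsg each passed in 2 of 15 settings, with DESeq2 and with a surrogate variable. Arsg shares 266 bases with Slc16a6, which had a log2 fold change of 0.54, and whether strand was used in counting is not given, so reads in the shared stretch cannot be told apart.

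Apart from clock genes, the other genes with separated libraries and small p that were higher at 0.1 mg/kg were Mafg, Adcy4, Dio3os, Ngef and Pitpnm2. Mafg, a small Maf protein that pairs with NRF2, had 48.9, 36.3, 59.0 and 53.2 CPM in vehicle and 81.8, 80.9, 72.5 and 88.6 CPM at 0.1 mg/kg (log2 fold change 0.71, edgeR adjusted p = 0.386). Adcy4, an adenylyl cyclase, had 2.53 to 4.21 CPM against 5.77 to 9.66 CPM. The noncoding transcript Dio3os, which lies beside the deiodinase gene Dio3, had 0.387, 0.287, 0.317 and 0.834 CPM against 2.23, 1.68, 2.64 and 5.33 CPM. These values rest on few reads, 3 to 7 counts per vehicle library and 16 to 53 per dosed library, and the log2 fold change was 2.69. Among the genes with lower values, Mcu, the pore of the mitochondrial calcium uniporter, had 29.1, 29.1, 24.3 and 29.3 CPM in vehicle and 18.9, 15.4, 13.6 and 13.3 CPM at 0.1 mg/kg (log2 fold change -0.87, edgeR adjusted p = 0.386). Mcu had log2 fold changes of 0.01 and -0.22 at 1 and 6 mg/kg. Cs, which encodes citrate synthase of the tricarboxylic acid cycle, had 197.8 to 224 CPM in vehicle and 113.8 to 162 CPM at 0.1 mg/kg (-0.67). Ddc, the aromatic amino acid decarboxylase, had 33.7 to 61.5 CPM in vehicle and 19.2 to 27.9 CPM at 0.1 mg/kg (-1.09). Eed, a subunit of the Polycomb repressive complex, had 11.1 to 18.3 CPM against 5.79 to 9.88 CPM (-0.84). The remaining genes with lower values were Clmp (-1.73), Mirt2 (-2.50), Arhgap18 (-0.91), Lgalsl (-0.82) and Blcap (-0.63), with edgeR adjusted p-values of 0.425 for Clmp and 0.885 or more for the others.

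Of the 10 genes of smallest p that had separate, higher values at 0.1 mg/kg but did not pass, 4 were clock genes (Ciart, Dbp, Tef and Per3). The upstream windows of 3 of them are shown because they hold the elements of the loop, E-boxes (CACGTG) in Ciart and Tef and D-boxes (TTACGTAA or TTATGTAA, either strand) in Per3. Each window is the 250 bases before the annotated start, from RefSeq on GRCm38.p6, with matches in capitals. The Ciart window is chr3:95882229-95882478 on the minus strand, with E-boxes that begin 116, 58 and 44 bases before the start. The Tef window is chr15:81811164-81811413 on the plus strand, at the second of 2 annotated starts, with an E-box 138 bases before it. The Per3 window is chr4:151044666-151044915 on the minus strand, with D-boxes 205 and 158 bases before the start.
Ciart: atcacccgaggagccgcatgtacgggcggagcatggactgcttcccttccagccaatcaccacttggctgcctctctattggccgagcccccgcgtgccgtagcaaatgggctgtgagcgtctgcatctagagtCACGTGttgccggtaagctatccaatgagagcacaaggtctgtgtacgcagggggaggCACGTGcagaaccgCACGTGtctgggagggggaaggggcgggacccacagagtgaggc
Tef: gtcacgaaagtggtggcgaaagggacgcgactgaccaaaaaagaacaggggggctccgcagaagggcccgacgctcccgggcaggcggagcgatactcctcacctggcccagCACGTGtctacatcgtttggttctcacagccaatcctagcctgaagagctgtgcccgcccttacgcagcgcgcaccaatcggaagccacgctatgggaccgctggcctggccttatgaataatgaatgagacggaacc
Per3: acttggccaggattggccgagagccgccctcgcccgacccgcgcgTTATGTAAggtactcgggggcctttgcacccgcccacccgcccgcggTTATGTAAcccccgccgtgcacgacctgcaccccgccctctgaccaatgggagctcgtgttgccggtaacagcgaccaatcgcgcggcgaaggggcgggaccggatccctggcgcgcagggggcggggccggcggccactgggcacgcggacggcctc
An E-box stood in such a window in 6.86% and a D-box in 1.1% of 27025 genes. Of 17 core clock genes, 13 had a window, and 4 of these held an E-box (Per1, Cry1, Bhlhe41 and Ciart) and 1 a D-box (Per3). Of 13 clock output genes, 12 had a window, 2 with an E-box (Tef and Coq10b) and 1 with a D-box (Coq10b). The window of Usp2 held neither pattern, and these matches are a description of letters, not of binding.

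The hour of tissue collection is not given for any library, so dose and hour cannot be told apart in the clock genes. The part of the hour in their differences was not tested. All 17 genes of the core clock list were tested, and none passed. At an unadjusted p under 0.05, 5 were higher (Ciart, Per3, Bhlhe41, Per2 and Cry2) and 1 was lower (Arntl), beside background shares of 2.58% and 1.53%. The lower count was 0 without vehicle animal 3 or 4 or dosed animal 28, and 2 without dosed animal 29. The list median log2 fold change was 0.30, and the summed level was 470, 481.7, 529.1 and 530.4 CPM in vehicle and 676.9, 697.7, 720.3 and 659.8 CPM at 0.1 mg/kg, with no overlap. The largest difference was in Ciart, which encodes a repressor of the activator pair. Its levels were 0.581, 1.24, 4.12 and 2.14 CPM in vehicle and 11.6, 15.1, 21.6 and 18.9 CPM at 0.1 mg/kg, from 6 to 39 counts and from 104 to 221 counts per library. All dosed libraries were above all vehicle libraries, and vehicle animals 3 and 4 were the lowest (log2 fold change 3.06, SE 0.659, edgeR adjusted p = 0.386). Ciart shares 3758 bases with C920021L13Rik, which had a log2 fold change of 0.23.

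The period genes, which encode the main repressors, had higher values at 0.1 mg/kg. Per3 measured 5.23, 4.40, 21.7 and 17.9 CPM in vehicle and 40.3, 49.9, 38.4 and 29 CPM at 0.1 mg/kg (log2 fold change 1.68, SE 0.404, edgeR adjusted p = 0.425). Per2 measured 12.9, 11.7, 42.4 and 21.8 CPM in vehicle and 59.7, 71.7, 45.4 and 38.2 CPM at 0.1 mg/kg (1.28, unadjusted p = 0.0174). In Per3 the groups were separate, whereas in Per2 vehicle animal 7 lay within the dosed range. Per1 measured 20.2 to 28.4 CPM in vehicle and 35.4 to 43.6 CPM at 0.1 mg/kg, also without overlap (0.66, unadjusted p = 0.0795). Cry2, a cryptochrome repressor, had 16.2 to 24.7 CPM against 23.3 to 37.2 CPM (0.59), and Cry1 had a log2 fold change of -0.37. Bhlhe41, a repressor that also binds E-boxes, had 0 to 8 counts per vehicle library and 6 to 22 per dosed library (2.32, unadjusted p = 0.00406). Its relative Bhlhe40 had 56.4 to 82.3 CPM against 86.7 to 145.6 CPM (0.64). In the second loop, the nuclear receptor Nr1d2 had 43.8, 42, 60.4 and 59.1 CPM in vehicle and 76.4, 81.0, 65.7 and 74.8 CPM at 0.1 mg/kg (0.54, no overlap), and its relative Nr1d1 had a log2 fold change of 0.25.

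The activator genes went the other way in value. Arntl, which encodes BMAL1, measured 9.88, 7.75, 3.38 and 3.93 CPM in vehicle and 2.89, 2.52, 0.978 and 4.02 CPM at 0.1 mg/kg (log2 fold change -1.26, SE 0.526, unadjusted p = 0.0255). Vehicle animals 3 and 4 were the highest, and animals 7 and 8 lay within the dosed range. Npas2, a partner of BMAL1, had a log2 fold change of -1.23, and Clock, its other partner, had -0.33. The casein kinases Csnk1d and Csnk1e and the receptor Rora had -0.03, 0.10 and -0.01.

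All 13 clock output genes were tested. Usp2 passed, 8 reached an unadjusted p under 0.05 with higher values (background 2.58%), and none did with lower values (background 1.53%). The list median log2 fold change was 0.88, and the summed level was 761.5 to 1121 CPM in vehicle and 1447 to 2458 CPM at 0.1 mg/kg. Dbp, the founder of the D-box binding factors, measured 41.4, 44.6, 130.7 and 180.7 CPM in vehicle and 227.1, 291.0, 302.5 and 306.2 CPM at 0.1 mg/kg (log2 fold change 1.5, SE 0.338, edgeR adjusted p = 0.386). Its relative Tef measured 70.9, 62.8, 114.2 and 119.7 CPM in vehicle and 177.4, 244.3, 192.2 and 230.3 CPM at 0.1 mg/kg (1.20, SE 0.271, edgeR adjusted p = 0.386). In both genes the groups were separate, and vehicle animals 3 and 4 were again below animals 7 and 8. Dbp shares 741 bases with Sphk2, which had a log2 fold change of 0.96, and reads in the shared stretch cannot be told apart. Hlf, the third factor of the family, had 37.4 to 46.1 CPM against 36.9 to 72.8 CPM (0.40).

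The other output genes serve metabolism and the cell cycle. Upp2, a uridine phosphorylase, measured 168.3, 120.5, 218.9 and 278.2 CPM in vehicle and 390.5, 444.2, 529.1 and 312.4 CPM at 0.1 mg/kg (log2 fold change 1.09, unadjusted p = 0.00421). Alas1, the first enzyme of heme synthesis, measured 166.0, 187.1, 266.5 and 173.5 CPM against 221.6, 479.2, 823.3 and 555.4 CPM (1.39, unadjusted p = 0.00734). Upp2 was separate, and Alas1 overlapped through dosed animal 23. Nampt, which makes a precursor of NAD, had 33.2 to 49.1 CPM against 50.7 to 67.8 CPM (0.58). Coq10b, a coenzyme Q binding protein, had 19.8 to 20.1 CPM against 27.4 to 46.8 CPM (0.88), a very narrow vehicle range that no dosed library entered. Wee1, a kinase that holds back mitosis, had 1.72 to 3.70 CPM against 3.67 to 13.7 CPM (1.61), and Noct and Lpin1 had 0.72 and 0.35. Values below 0 came from Avpr1a, the vasopressin receptor of hepatocytes, with 41.5 to 50.6 CPM against 29 to 35.8 CPM (-0.43), and from the repressor Nfil3 (-0.33).

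**Figure D2:**
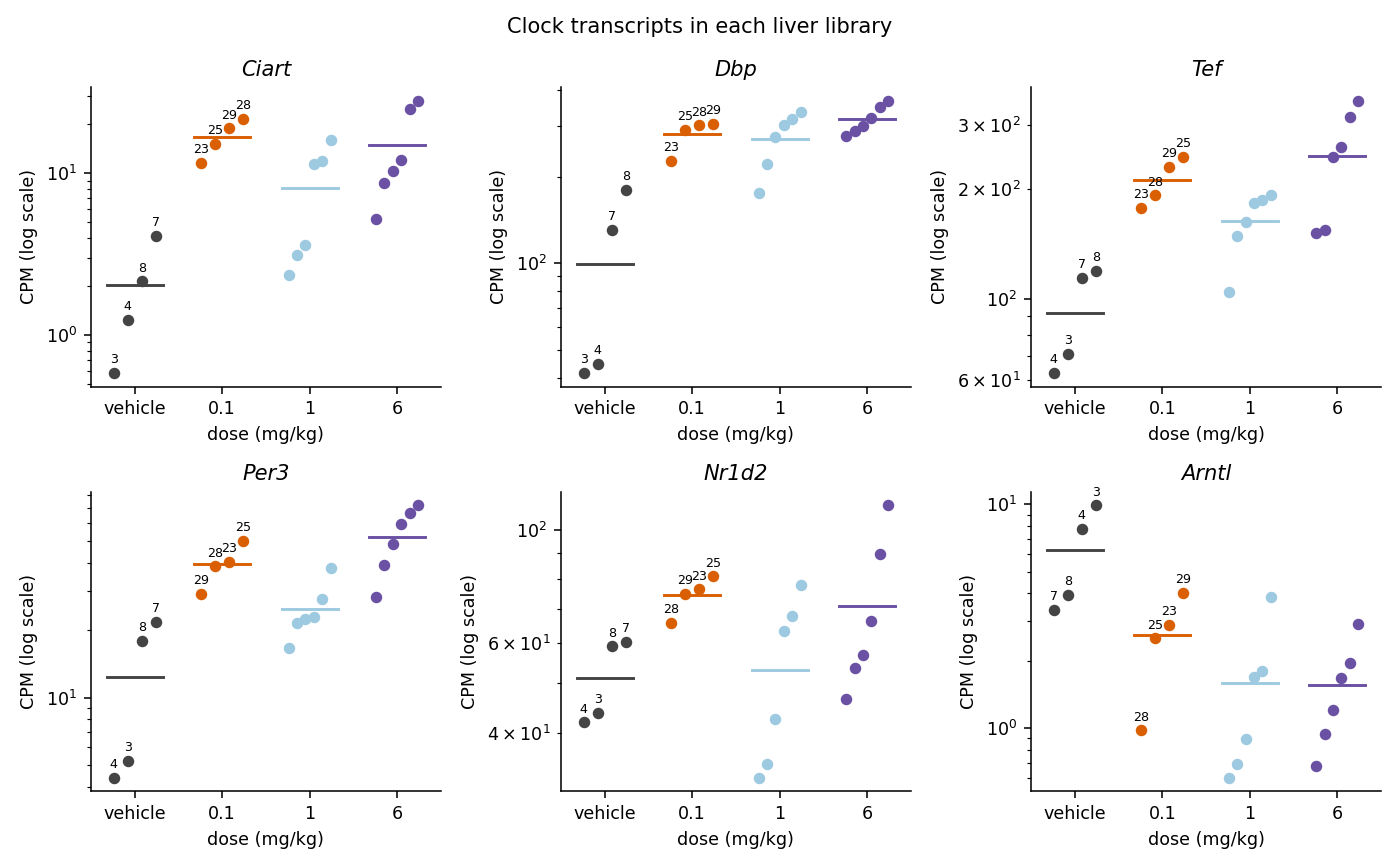
CPM on a log scale (y axis) of 6 clock genes in each liver library against dose in mg/kg (x axis); points are libraries, numbers are animals of the vehicle and 0.1 mg/kg groups, and bars are group means. Within the vehicle group, animals 3 and 4 sat lowest in Ciart, Dbp, Tef, Per3 and Nr1d2 and highest in Arntl, and for those 5 genes every 0.1 mg/kg library was above every vehicle library.

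Because vehicle animals 3 and 4 stood apart in these genes, the fit was repeated without both, a setting chosen after seeing the data. Trib1 and Usp2 then had log2 fold changes of 1.02 and 2.27, and no gene passed (edgeR, 217 genes at an unadjusted p under 0.05). Ciart had 2.41, Per3 0.99, Dbp 0.86, Tef 0.85 and Arntl -0.48. The counts of higher members at an unadjusted p under 0.05 were 2 of 17 for the core clock (3 without either animal alone) and 4 of 13 for clock output, with list medians of 0.32 and 0.76. Clock, Cry1 and Nfil3, which were below 0 with all libraries, had 0.09, 0.03 and 0.08 in that fit. The comparisons of 0.1, 1 and 6 mg/kg share the vehicle libraries. Against these, the core clock medians were 0.30, 0.23 and 0.39 and the clock output medians were 0.88, 0.21 and 0.91 at 0.1, 1 and 6 mg/kg.

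Cytosolic heat shock genes were counted in the same way. Of 19 tested, none passed, 9 reached an unadjusted p under 0.05 with higher values (background 2.58%) and none with lower values, and the list median log2 fold change was 0.53. Summed CPM was 3254, 3444, 3960 and 3417 in vehicle and 3458, 4991, 5710 and 5970 in animals 23, 25, 28 and 29, so animal 23 lay within the vehicle range and the other 3 above it. Without animal 23 the count at an unadjusted p under 0.05 was 14 of 19, without animal 29 it was 5, without animal 28 it was 6, and without both vehicle animals 3 and 4 it was 4.

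The windows before Hspa1b and Hspb1 are shown because Hspa1b differed between doses and Hspb1 had the smallest p of the list. Capitals mark paired GAA units (GAANNTTC or TTCNNGAA, both of which read the same on either strand). The Hspa1b window is chr17:34959239-34959488 on the minus strand, with a match that begins 104 bases before the start. The Hspb1 window is chr5:135887669-135887918 on the plus strand, with matches 117 and 97 bases before the start.
Hspa1b: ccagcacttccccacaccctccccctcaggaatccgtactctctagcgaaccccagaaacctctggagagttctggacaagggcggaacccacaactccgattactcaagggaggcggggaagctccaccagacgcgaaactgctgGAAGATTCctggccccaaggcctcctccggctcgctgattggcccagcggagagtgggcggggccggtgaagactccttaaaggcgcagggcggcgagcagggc
Hspb1: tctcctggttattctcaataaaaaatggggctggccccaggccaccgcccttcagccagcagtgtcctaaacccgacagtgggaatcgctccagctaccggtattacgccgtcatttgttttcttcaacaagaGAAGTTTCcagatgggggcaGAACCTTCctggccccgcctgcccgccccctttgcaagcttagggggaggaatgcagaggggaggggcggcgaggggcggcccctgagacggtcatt
The pattern stood in 8 of the 16 heat shock genes with a window (Hspa1a, Hspa1b, Hsph1, Dnaja1, Hspb1, Hspe1, Hspd1 and Fkbp4) and in 14.5% of all genes.

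Hspb1, a small heat shock protein that holds unfolded clients, measured 23.7, 27.9, 13.5 and 22.7 CPM in vehicle and 20.8, 62.5, 61.4 and 147.9 CPM at 0.1 mg/kg (log2 fold change 1.73, SE 0.421, edgeR adjusted p = 0.425). Animal 23 was within the vehicle range and the other 3 were above it. Hsp90aa1, the inducible HSP90, had the same pattern, with 124.4, 126.8, 159.0 and 122.1 CPM in vehicle and 129.7, 253.3, 312.2 and 343.4 CPM at 0.1 mg/kg (0.96, edgeR adjusted p = 0.733). Hspa8, the constitutive HSP70 that takes part in most cytosolic folding, measured 1021, 1205, 1458 and 1349 CPM in vehicle and 1444, 2354, 2043 and 2405 CPM at 0.1 mg/kg (0.71). Hsph1, a nucleotide exchange factor for HSP70, measured 41.5, 34.2, 49.9 and 28.1 CPM against 29.1, 51.5, 105.0 and 84.9 CPM (0.81). In each of these genes animal 23 was the lowest dosed library and overlapped vehicle. Stip1, which links HSP70 to HSP90, had 72.1 to 96.2 CPM against 89.0 to 143.0 CPM (0.63), and Dnaja1, a J-domain partner of HSP70, had 192.5 to 246.3 CPM against 232.8 to 356.6 CPM (0.53). Hspa4l, another exchange factor, was the only list member with separate groups (background 2.14% for higher values), at 15.2 to 19.3 CPM against 21.4 to 35.6 CPM (0.66). Hspa1b, the strictly inducible HSP70, measured 25.7, 29.5, 30.2 and 7.74 CPM in vehicle and 13.9, 26.7, 98.7 and 35.5 CPM at 0.1 mg/kg (0.91, unadjusted p = 0.0823), with wide overlap.

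Hspa1b and Hsph1 passed between 0.1 mg/kg and a higher dose, in comparisons that share the 0.1 mg/kg libraries. Against 0.1 mg/kg, Hspa1b fell at 1 mg/kg by 2.94 on the log2 scale (edgeR adjusted p = 0.0244) and at 6 mg/kg by 3.39 (SE 0.481, edgeR adjusted p = 0.00862). Its range was 13.9 to 98.7 CPM at 0.1 mg/kg, 3.374 to 10.93 CPM at 1 mg/kg and 2.505 to 8.042 CPM at 6 mg/kg, with no overlap between 0.1 mg/kg and either higher dose. The fall at 6 mg/kg held when each of the 10 libraries was left out in turn, with changes from -3.69 to -2.61, while that at 1 mg/kg held in 4 of 10 such fits. On the 6 and 0.1 mg/kg libraries alone no gene passed (edgeR, 1331 genes at an unadjusted p under 0.05). Vehicle, at 7.74 to 30.2 CPM, was also mostly above the higher doses. Hsph1 fell at 6 against 0.1 mg/kg by 1.64 (SE 0.296, edgeR adjusted p = 0.0395), from 29.1 to 105.0 CPM down to 16.92 to 31.57 CPM, a call that held in 2 of 10 fits without a library. Over the list, 12 of 19 were lower at 1 than at 0.1 mg/kg at an unadjusted p under 0.05 (background 2.99%, list median -0.54), and 15 of 19 were lower at 6 than at 0.1 mg/kg (background 6.1%, list median -0.64). Against vehicle, 6 of 19 were lower at each of 1 and 6 mg/kg at that level (backgrounds 3.31% and 11.1%) and none was higher, with list medians of -0.15 and -0.21.

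**Figure D3:**
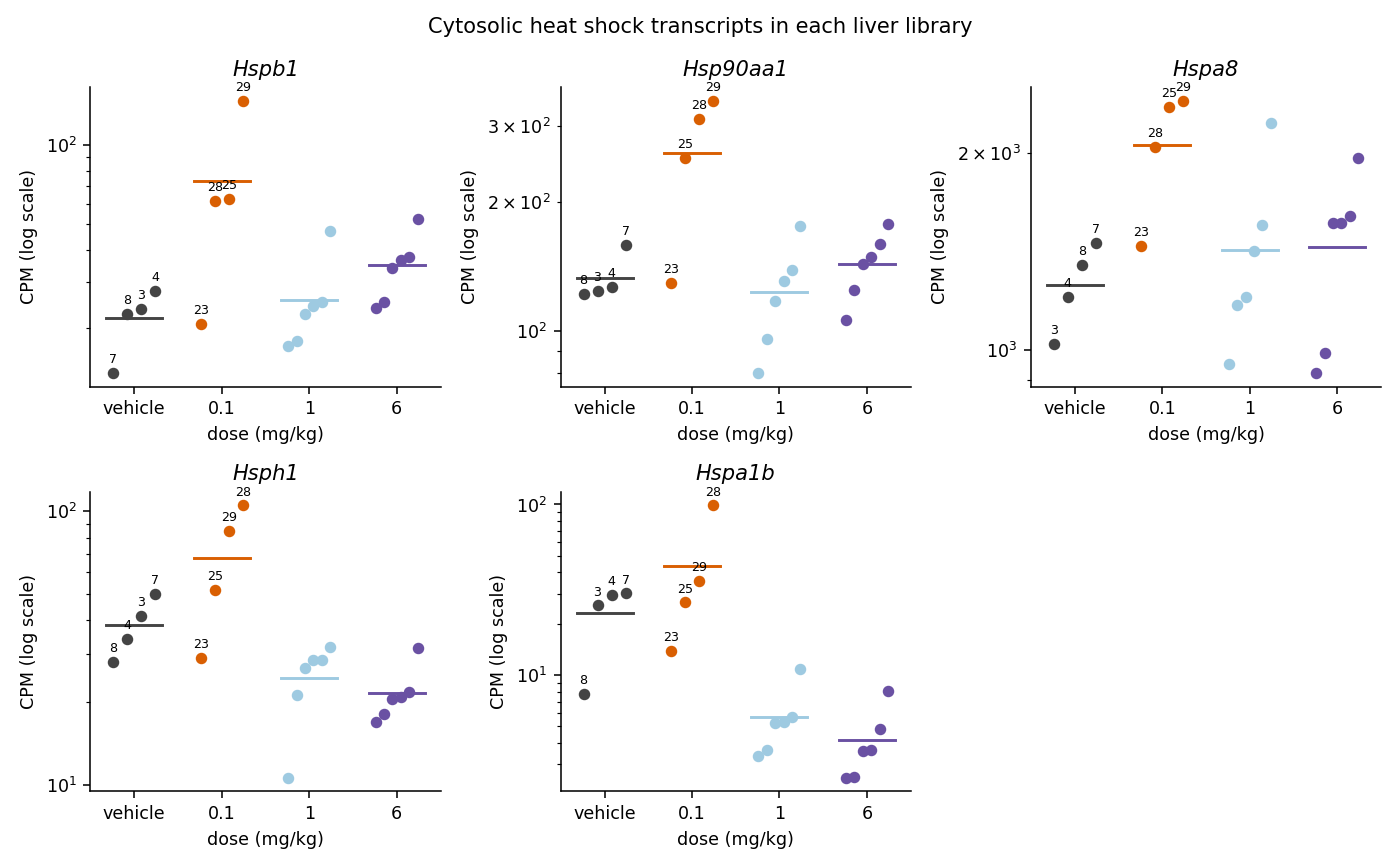
CPM on a log scale (y axis) of 5 heat shock genes in each liver library against dose in mg/kg (x axis); points are libraries, numbers are animals of the vehicle and 0.1 mg/kg groups, and bars are group means. Animal 23 was the lowest 0.1 mg/kg library in all 5 genes, and the Hspa1b libraries at 1 and 6 mg/kg, at 2.505 to 10.93 CPM, lay below all 4 at 0.1 mg/kg.

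The chaperones of the endoplasmic reticulum, a separate compartment with its own stress response, were also counted at 0.1 mg/kg against vehicle. Of 26 tested, none was higher at an unadjusted p under 0.05 (background 2.58%) and 2 were lower (background 1.53%), the stress sensor Eif2ak3 (log2 fold change -0.61) and the BiP cochaperone Dnajb9 (-0.55), with a list median of -0.02. The lower count was 0 without any one of vehicle animals 3 and 4 and dosed animals 23 and 29, and 1 without vehicle animal 7 or dosed animal 25. Against 0.1 mg/kg, Dnajb9 fell at 6 mg/kg by 1.32 (SE 0.233, edgeR adjusted p = 0.0395). It measured 45.2, 39.8, 59.3 and 38.9 CPM at 0.1 mg/kg and 12.77 to 27.36 CPM at 6 mg/kg, without overlap, and 18 of the 26 were lower at 6 than at 0.1 mg/kg at an unadjusted p under 0.05 (background 6.1%). Against vehicle, 17 of the 26 were lower at 6 mg/kg at that level (background 11.1%), with a list median of -0.81. The Dnajb9 call held in 2 of 10 fits without a library.

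The other genes that differed between doses were P4ha1, Cyp2b10 and Fyb2. In all, 2 genes fell from 0.1 to 1 mg/kg (0.0154% of those tested), and 3 fell and 2 rose from 0.1 to 6 mg/kg (0.0386%). P4ha1, the catalytic subunit of collagen prolyl hydroxylase, had 15.3, 18.8, 27.0 and 23.6 CPM at 0.1 mg/kg and 7.244 to 9.434 CPM at 1 mg/kg (log2 fold change -1.30, SE 0.204, edgeR adjusted p = 0.0244), and its call held in 5 of 10 fits without a library. Fyb2, which encodes an adaptor protein, had 4.79, 1.47, 1.47 and 1.61 CPM at 0.1 mg/kg and 6.183 to 8.768 CPM at 6 mg/kg (1.69, edgeR adjusted p = 0.0395). Its call held in 2 of 10 such fits, and it shares 41187 bases with C8a, an abundant liver gene of complement.

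No gene of xenobiotic metabolism passed at 0.1 mg/kg against vehicle. Cyp2b10, the usual readout of CAR, measured 2.23, 1.72, 0.739 and 1.43 CPM in vehicle and 1.67, 1.37, 4.6 and 4.63 CPM at 0.1 mg/kg, from 7 to 23 and from 13 to 47 counts per library. Animals 28 and 29 were above vehicle and animals 23 and 25 within its range (log2 fold change 1.00, 95% interval -0.85 to 2.85, unadjusted p = 0.295). At 6 mg/kg it measured 11.38 to 247.1 CPM, and against 0.1 mg/kg it rose by 5.02 (SE 0.847, edgeR adjusted p = 0.0395), a call that held in 3 of 10 fits without a library. Of 12 tested CAR and Cyp2 genes, 2 were higher at an unadjusted p under 0.05 (background 2.58%). The count was 4 without vehicle animal 8 or dosed animal 28, 1 without vehicle animal 3 or 4 or dosed animal 25, and 0 without both vehicle animals 3 and 4. Cyp2a5, a coumarin hydroxylase, had 507.8, 674.0, 1158 and 1168 CPM in vehicle and 1361, 1437, 1595 and 1564 CPM at 0.1 mg/kg (0.76), separate groups with vehicle animals 3 and 4 lowest. Without both of these its log2 fold change was 0.36 (unadjusted p = 0.175). Cyp2c54 had 12.5 to 29.2 CPM in vehicle and 58.6, 171.2, 25.8 and 16.1 CPM at 0.1 mg/kg (1.67), high in animals 23 and 25 alone. The Cyp2 and Cyp3a genes are families of near-identical copies, and their counts are uncertain where reads can match more than 1 copy.

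Cyp1a2, a target of the aryl hydrocarbon receptor that is highly expressed in hepatocytes around the central vein, measured 364.7, 329.4, 320.3 and 374.2 CPM in vehicle and 534.3, 567.7, 466.7 and 480.4 CPM at 0.1 mg/kg. The groups did not overlap, and the means were 347.2 ± 26.33 and 512.3 ± 47.1 CPM (SD, n = 4 each). The log2 fold change was 0.56 (SE 0.242, 95% interval 0.08 to 1.05, unadjusted p = 0.0298, edgeR adjusted p = 0.994). At 1 and 6 mg/kg its levels were 477.3 to 964.6 and 563.4 to 1192 CPM, and against the shared vehicle libraries the log2 fold changes were 0.56, 0.91 and 1.44 at 0.1, 1 and 6 mg/kg. It was the only one of 6 tested receptor targets at an unadjusted p under 0.05 (background 2.58%), with a list median of 0.07. That count was 0 without any one of vehicle animals 4 and 7 and dosed animals 23 and 25. The 11 pericentral markers, which include Cyp1a2, summed to 7592 to 9788 CPM in vehicle and 9142 to 13017 CPM at 0.1 mg/kg, and their part in the result was not tested. All 8 tested Cyp3a genes had log2 fold changes above 0, none at an unadjusted p under 0.05, with a list median of 0.32. It was 0.17 without dosed animal 29, 0.20 without vehicle animal 4 and 0.14 without both vehicle animals 3 and 4. On the 2 groups alone, 2 of the 8 were higher at that level. Over all genes, that fit had 1010 at that level in either direction, against 532 in the fit as reported. None of 9 xenobiotic receptor genes reached that level in the fit as reported. The higher count was 1 without dosed animal 23 or on the 2 groups alone. It was 2 with 1 surrogate variable, where 751 of all genes were at that level in either direction. Higher values at that level (background 2.58%) were found in 1 of 37 conjugation enzymes, Sult2a8, a bile acid sulfotransferase (0.79), and 1 of 16 NRF2 and small Maf genes, Mafg (0.71). Lower values at that level (background 1.53%) were found in 1 of 17 transporters, Slc51b, a bile acid exporter subunit (-1.39), and 1 of the 16, G6pdx, a pentose phosphate enzyme (-1.60). The count of conjugation enzymes ran from 0 (without vehicle animal 3 or 4 or dosed animal 25) to 3 (without vehicle animal 8), with 2 without dosed animal 23 or 28. The lower NRF2 count ran from 0 (without vehicle animal 4 or dosed animal 25 or 29) to 2 (without vehicle animal 8 or dosed animal 28). The lower transporter count was 0 without any one of vehicle animals 3, 7 and 8 and dosed animals 25, 28 and 29, and 2 transporters were higher without dosed animal 23 and 1 without dosed animal 29.

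Lipid synthesis genes had mostly lower values at 0.1 mg/kg, and the summed levels of both lists were lowest in animals 25 and 29. Of 25 cholesterol synthesis and uptake genes, 23 had log2 fold changes below 0 and 2 reached an unadjusted p under 0.05 (background 1.53%), with a list median of -0.43. Hmgcs1, which makes the precursor of mevalonate, measured 452.1, 518.4, 674.7 and 1105 CPM in vehicle and 575.3, 406.4, 351.5 and 341.5 CPM at 0.1 mg/kg (-0.72), with overlap. Nsdhl, a later step, had -0.50. Cyp51, which demethylates lanosterol, had 213.8 to 315.0 CPM against 103.9 to 204.1 CPM (-0.74). Acat2, Pmvk and Idi1 were also separate (-0.75, -0.88 and -0.62), which made 4 of the 25 with separate, lower values (background 1.99%). The count of 2 was 0 without any one of animals 25, 28 and 29 or vehicle animals 7 and 8, 1 without vehicle animal 4, and 4 without animal 23. It was 9 on the 2 groups alone and 4 with 1 surrogate variable. Over all genes, those fits had 1010 and 751 at that level in either direction, against 532 in the fit as reported. Of 17 fatty acid synthesis genes none reached an unadjusted p under 0.05, and the list median was -0.37. It was -0.18 without vehicle animal 7 and -0.62 without dosed animal 23, where 2 members were lower at that level. On the 2 groups alone 3 were, in the fit with 1010 of all genes at that level. Their summed level was 23246, 30841, 31035 and 24740 CPM in vehicle and 24604, 10339, 25116 and 10722 CPM in animals 23, 25, 28 and 29, so animals 25 and 29 were far below vehicle and the other dosed animals were within its range. Me1, the malic enzyme that supplies NADPH, was among 3 members with separate, lower values (background 1.99%), at 725.7 to 1015 CPM against 191.4 to 616.4 CPM (-1.08).

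In fuel use, Pdk4, a kinase that slows pyruvate oxidation in fasting, measured 11, 28.9, 11.3 and 13.1 CPM in vehicle and 5.23, 3.68, 6.36 and 12.4 CPM at 0.1 mg/kg (log2 fold change -1.22, unadjusted p = 0.00381). The hormone Fgf21 had 4.12 to 16.5 CPM against 0.88 to 7.04 CPM (-1.34). In both genes the groups overlapped, and they were the only lower members at an unadjusted p under 0.05 (background 1.53%) among 28 PPAR alpha and fatty acid oxidation genes, where none was higher (background 2.58%). The list median was 0.14, but -0.18 without dosed animal 29 and 0.35 without dosed animal 23. The count of 2 was 1 without any one of vehicle animals 3 and 4 and dosed animals 23, 25 and 28, and 0 without both vehicle animals 3 and 4. Among 19 glucose genes 1 reached an unadjusted p under 0.05 with a higher value (0 without vehicle animal 3 or 4, and 2 without dosed animal 23). It was Pfkfb1, a regulator of glycolysis, with 14.7 to 32.9 CPM against 34.1 to 36.5 CPM (0.55). Of 13 bile acid synthesis and 10 thyroid hormone genes none reached an unadjusted p under 0.05. Without vehicle animal 8, 2 thyroid hormone genes were higher at that level. Of the bile acid genes, 1 was lower without dosed animal 23 or 28 and 2 were with DESeq2. Of 16 growth hormone genes 1 reached that level, Igfals, the acid labile subunit of the Igf complex (0.53). That count was 0 without any one of vehicle animals 4 and 7 and dosed animals 28 and 29, and 2 without vehicle animal 8. Of 16 glucocorticoid genes 1 reached it, Sult1e1, the estrogen sulfotransferase (-2.60), and 0 without vehicle animal 7 or dosed animal 25. Sult1e1 had 1.94, 3.16, 43.0 and 26.7 CPM in vehicle and 0.63 to 5.77 CPM at 0.1 mg/kg, so the difference lay in vehicle animals 7 and 8.

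Genes of interferon response and macrophages were higher in value by small amounts. Of 30 interferon genes, 26 had log2 fold changes above 0 and 5 reached an unadjusted p under 0.05 (background 2.58%), with a list median of 0.33. Oas1a, which makes the activator of RNase L, had 4.84, 5.45, 4.01 and 5.72 CPM in vehicle and 9.13, 10.6, 7.82 and 7.44 CPM at 0.1 mg/kg (0.80), without overlap. The other 4 were its relative Oasl2 (0.78) and the regulatory factors Irf1 (0.45), Irf8 (0.62) and Irf9 (0.32). The count was 3 without any one of dosed animals 23, 25 and 28, 2 without vehicle animal 3 or 4, and 1 without both of these. All 11 guanylate binding proteins, which attack intracellular microbes, had values above 0, and 2 reached an unadjusted p under 0.05 (background 2.58%). Gbp11 measured 2.13, 2.39, 2.53 and 2.14 CPM in vehicle and 4.90, 7.46, 4.99 and 8.15 CPM at 0.1 mg/kg (1.46), separate groups at low level, and Gbp5 had 1.36. The count was 1 without dosed animal 29 or without both vehicle animals 3 and 4. Gbp genes are near-identical copies, so their counts are uncertain.

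Markers of Kupffer cells, the macrophages of the liver, were also higher in value at 0.1 mg/kg. All 10 had log2 fold changes above 0 (list median 0.48), and their summed level was 216.5 to 328.3 CPM in vehicle and 357.4 to 486.6 CPM at 0.1 mg/kg, without overlap. C1qa, a complement subunit, measured 34.2, 42.6, 41.6 and 34.5 CPM in vehicle and 64.6, 64.0, 62.8 and 60.7 CPM at 0.1 mg/kg (0.72, unadjusted p = 0.0117). Clec4f, a lectin that marks Kupffer cells, measured 56.6, 69.2, 81.2 and 48.8 CPM in vehicle and 105.9, 109.3, 100.6 and 85.8 CPM at 0.1 mg/kg (0.65, unadjusted p = 0.0133). Both were separate. The part of the macrophage markers in the interferon and guanylate binding values was not tested. Of 21 acute phase genes 1 reached an unadjusted p under 0.05 with a higher value (background 2.58%), Saa4, a constitutive serum amyloid, at 84.6 to 105.8 CPM against 126.0 to 163.9 CPM (0.63). Markers of other cells overlapped between the groups: sinusoidal endothelium summed to 279.1 to 319.2 CPM in vehicle and 279.4 to 447.6 CPM at 0.1 mg/kg, stellate cells to 460.7 to 822.7 and 677 to 713.3 CPM, and periportal hepatocytes to 4935 to 6147 and 3778 to 6009 CPM. Cholangiocyte markers, 5 of 7 tested, summed to 45.82 to 118.5 CPM in vehicle and 37.94 to 59.9 CPM at 0.1 mg/kg. The 4 tested lymphocyte markers summed to no more than 5.567 CPM in any of the 8 libraries.

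Among immediate early genes, which respond within minutes to many signals, Nr4a1 and Junb were highest in animal 23. Of 16 tested, 3 reached an unadjusted p under 0.05 with higher values (background 2.58%). Without animal 23 the counts were 0 higher and 1 lower, and without animal 29 they were 5 and 0. Nr4a1 measured 26.7 CPM in animal 23 and 1.37 to 1.91 CPM in the other dosed animals, against 0.357 to 2.01 CPM in vehicle. Junb measured 87.4 CPM in animal 23, 33.2 to 49.7 CPM in the other dosed animals and 17.3 to 36.3 CPM in vehicle. Ier2 had a log2 fold change of 0.56. Of 15 cell cycle genes, the mitotic kinase Cdk1 had 10 to 14 counts per vehicle library and 1 to 6 per dosed library (-1.71), and the cyclin Ccnd1 had a log2 fold change of 0.71. The 4 nuclear noncoding transcripts summed to 167.6, 122.2, 313 and 360.4 CPM in vehicle and 524.2, 622.2, 202.2 and 342.2 CPM at 0.1 mg/kg, with overlap and none at an unadjusted p under 0.05.

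**Figure D4:**
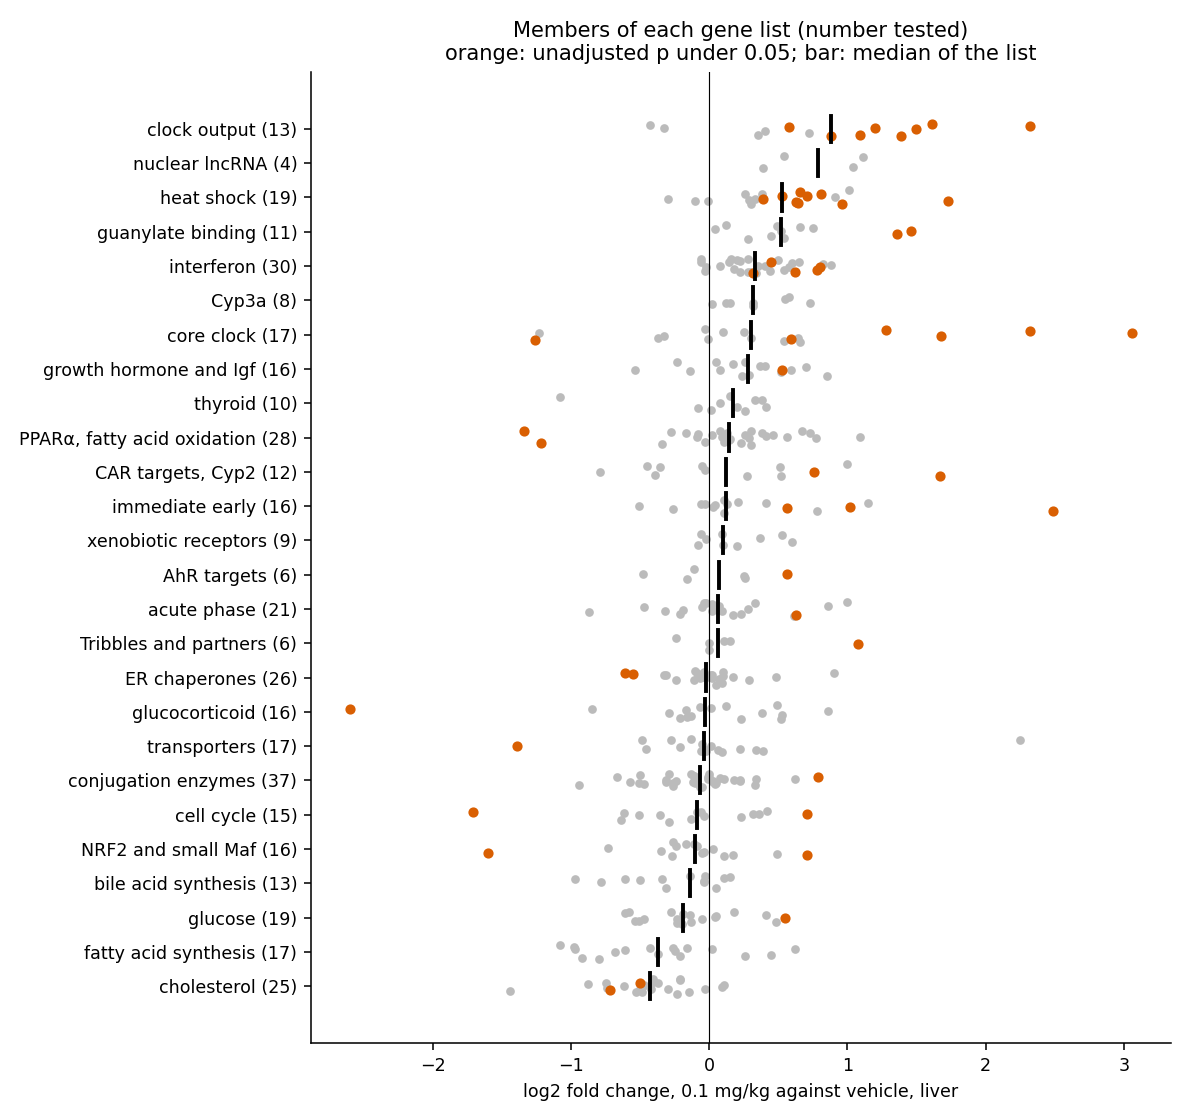
Log2 fold change at 0.1 mg/kg against vehicle in the liver (x axis) for each tested member of 26 gene lists (y axis, number tested in parentheses); each point is a gene, orange marks an unadjusted p under 0.05, and bars are list medians. Clock output, with a median of 0.88, stood at the top and cholesterol, with -0.43, at the bottom, while the median of all genes tested was -0.001.

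The clock difference was then compared with that in the brain, where the same dose was set against vehicle in the prefrontal cortex and the striatum (4 vehicle and 5 dosed libraries each). No gene passed at 0.1 mg/kg in either region (edgeR; 954 of 14838 and 383 of 15118 genes at an unadjusted p under 0.05). The interaction of tissue and dose was tested over 14214 genes for the prefrontal cortex, where 2 passed (0.0141%), and over 14355 genes for the striatum, where 4 passed (0.0279%), all with the larger log2 fold change in the liver.

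Ciart had a log2 fold change in the liver that was larger by 3.12 than in the prefrontal cortex (SE 0.45, edgeR adjusted p = 0.0102) and by 3.06 than in the striatum (SE 0.463, edgeR adjusted p = 0.0292). Its cortical means were 11.53 ± 2.712 and 11.24 ± 2.113 CPM for vehicle and dosed libraries, and in the striatum they were 10.72 ± 2.327 and 10.64 ± 1.776 CPM (SD, n = 4 and 5). Brain levels were thus alike in the groups, while the liver went from 2.021 ± 1.537 to 16.81 ± 4.382 CPM (SD, n = 4 each). Usp2 differed by 2.25 from the prefrontal cortex (SE 0.368, edgeR adjusted p = 0.0406) and by 2.42 from the striatum (SE 0.397, edgeR adjusted p = 0.0409). Its levels were 64.35 ± 4.891 and 68.16 ± 7.47 CPM in the prefrontal cortex and 64.88 ± 13.03 and 59.79 ± 10.55 CPM in the striatum (vehicle then 0.1 mg/kg; SD, n = 4 and 5), above every liver library. Leaving out each animal number in turn, the Ciart calls held in 4 of 9 fits for each region, and the Usp2 calls in 1 of 9. With the animal number as a block, the interaction for Usp2 was lost in both regions (edgeR adjusted p = 0.303 and 0.163), and that for Ciart held. The interaction fits shared a spread per gene over liver and brain libraries. For Ciart in both regions and Usp2 in the prefrontal cortex, the SE of the difference was below that of the liver difference alone. The p-values of these interactions may thus be too small.

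Gm4070, a predicted gene named VLIG-1 among its RefSeq synonyms, and Dio3os also passed against the striatum. Gm4070 measured 32.3, 23, 29.8 and 30.3 CPM in liver vehicle and 71.9, 61.4, 58.9 and 56.5 CPM at 0.1 mg/kg, and its log2 fold change of 1.11 was larger by 1.37 than in the striatum (SE 0.22, edgeR adjusted p = 0.0308). It has near relatives and shares 4348 bases with Gm18852, so its counts are uncertain. Dio3os differed by 4.17 (SE 0.722, edgeR adjusted p = 0.0415), on few reads in the liver. The calls for Gm4070 and Dio3os held in 2 and 0 of 9 fits without an animal number, and both were lost with the block (edgeR adjusted p = 0.163 each).

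Other clock genes were close to 0 in the brain. Dbp had log2 fold changes of 0.20 and -0.11, Tef -0.01 and -0.07, and Per3 -0.12 and -0.09 in the prefrontal cortex and striatum, against 1.5, 1.20 and 1.68 in the liver. None of their interactions passed. Of the core clock list, 0 of 17 in the prefrontal cortex and 1 of 17 in the striatum were higher at an unadjusted p under 0.05 (backgrounds 3.4% and 1.23%), and of clock output 2 of 12 and 0 of 13. Heat shock genes were higher at that level in all 3 tissues, 9 of 19 in the liver, 8 of 19 in the prefrontal cortex and 7 of 19 in the striatum, with list medians of 0.53, 0.18 and 0.22. Endoplasmic reticulum chaperones were higher at that level in 12 of 26 and 11 of 26 in the brain regions and in 0 of 26 in the liver, and these list differences between tissues were not tested.

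**Figure D5:**
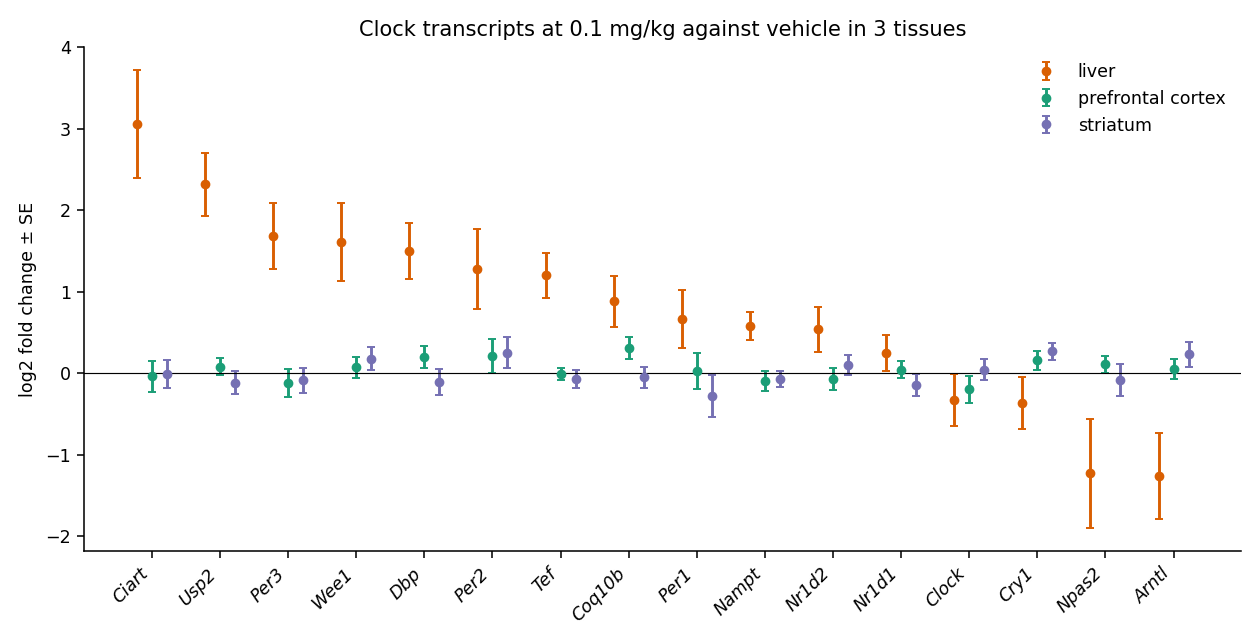
Log2 fold change ± SE at 0.1 mg/kg against vehicle (y axis) of 16 clock genes (x axis) in the liver, prefrontal cortex and striatum. The liver points of Ciart (3.06) and Usp2 (2.32) stand above brain points that lie between -0.12 and 0.08, and the brain points of the remaining genes stay near 0.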

How the data were processed

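For each tissue the authors deposited 1 table of raw gene counts, keyed by Entrez identifier, in which every library has a column. Per the submitters' processing notes, FastQC and HISAT2 were used with mm10. Their versions, the counting tool, the annotation and whether strand was used are not given in the sources used here. TRIzol and spin columns served for RNA isolation per the labels, whose text speaks of brain punches for the liver libraries too, and messenger RNA was enriched by poly(A) capture or ribosomal RNA removal, without saying which. The liver table lists 16206 genes, each with at least 10 counts over its libraries. Symbols and coordinates came from RefSeq on GRCm38.p6, which named 99.95% of them.

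The deposited counts went into edgeR 4.0.16 (R 4.3.3) after filterByExpr and TMM scaling. All 20 liver libraries (7.38 to 10.2 M, 10⁶ counts) entered 1 robust quasi-likelihood fit, so that the dose groups shared an estimate of the spread (common biological coefficient of variation 0.305, 16 residual degrees of freedom). Benjamini-Hochberg adjustment ran over all genes tested, and a gene passed with an adjusted value under 0.05. Standard errors are the log2 fold change over the square root of F, and 95% intervals are approximate, taken as a fixed multiple of the SE on either side. Each interaction used the liver and 1 brain region at vehicle and 0.1 mg/kg, with a spread per gene that both tissues shared. No pair of liver libraries in a group agreed within sampling noise (smallest chi-square per degree of freedom 12.93 over genes with at least 20 counts). Groups were called separate when all libraries of one lay above all of the other.

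Genes were named by a rule: those that passed (up to 4 in each further comparison), the 10 of smallest p in each direction with separate groups, every tested clock gene (1 is not reported here), and up to 4 members of smallest p from each other list. Genes outside the rule are named where a count of 5 or fewer needed them or a list or figure turned on them, after their values were seen. The gene lists and comparisons were chosen with earlier results of these data known. Alternatives were DESeq2 1.42.0, its median-ratio scaling within edgeR, leaving low counts unfiltered, requiring a mean of 10 counts or more, the 2 groups alone, 1 surrogate variable (sva 3.50.0), a replicate block for interactions, and each replicate left out. Leaving out both vehicle animals 3 and 4 was added after seeing the data. In simulated counts of the liver comparison (12788 genes), 35% of 100 genes changed 2-fold and 93% of 100 changed 4-fold were recovered, with 5.9% of 136 calls false. For the prefrontal cortex interaction (14145 genes) these were 45%, 83% and 3.8% of 133. Permutation tests and figures used Python 3.11.15 with scipy 1.17.1, numpy 2.4.6, pandas 2.3.3 and matplotlib 3.10.9.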

Additional observations from a re-analysis of the deposited data

Results flagged for a closer look

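The response to 0.1 mg/kg differed between the liver and a brain region for Ciart, Usp2, Gm4070 and Dio3os, by the test of the difference itself. The log2 fold change in the liver exceeded that in the prefrontal cortex by 3.12 for Ciart and 2.25 for Usp2, and that in the striatum by 3.06 for Ciart, 2.42 for Usp2, 1.37 for Gm4070 and 4.17 for Dio3os. The edgeR adjusted p-values were 0.0102 and 0.0406 in the first comparison and 0.0292, 0.0409, 0.0308 and 0.0415 in the second. They may be too small where the liver libraries were the more spread, since both tissues shared a spread per gene. With the animal number as a block Ciart alone passed in either region (edgeR adjusted p = 0.0235 and 0.0257). The Usp2 calls were lost (0.303 and 0.163), as were those of Gm4070 and Dio3os (0.163 each), and the Usp2 calls held in 1 of 9 fits without an animal number in each region.

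Single libraries stood far from the others of their group in 5 of 64 sets of 4 libraries checked, where chance gives about 3.2. Vehicle animal 7 had 24.3 CPM of Mcu, with the next library at 29.1 CPM. Dosed animal 28 had 19.3 CPM of Blcap, with the next at 17.0 CPM. Dosed animal 23 had the lowest summed hepatocyte markers of its group, 112666 CPM beside 129847 CPM, and the highest summed red cell markers, 473.1 CPM beside 75.7 CPM. The same animal had the lowest heat shock levels and the highest Nr4a1 and Junb levels of its group. Vehicle animal 7 had 96.2 CPM of summed brain markers, with the next at 16.7 CPM.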

How the results depend on the processing

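The 2 genes that passed at 0.1 mg/kg against vehicle were 12 with DESeq2, which shared both and added Ppl, Arsg, Mafg, Mcu, Dio3os, Hspb1, Ciart, Dbp, Tef and Per3. They were 4 with 1 surrogate variable, and 2 on the 2 groups alone, where Trib1 remained and Gm4070 replaced Usp2. Without both vehicle animals 3 and 4 the count was 0 (edgeR, 217 genes with an unadjusted p below 0.05). The fits without each library gave 0 to 2 (332 to 670 unadjusted). It was 0 without vehicle animal 4 or dosed animal 28, and 1 without vehicle animal 3 or 7 or dosed animal 29. The 2 genes at 1 against 0.1 mg/kg were 22 with DESeq2, 1 with no filter on low counts, 1 on the 2 groups alone, and 0 to 7 without each library. The 5 genes at 6 against 0.1 mg/kg were 148 with DESeq2, 14 when a mean of 10 counts or more was required, 47 with 1 surrogate variable, 0 on the 2 groups alone (edgeR, 1331 unadjusted) and 1 to 9 without each library. The interaction calls were 60 with DESeq2 and 0 to 8 without each animal number for the prefrontal cortex (2 in the fit as reported), and 64 and 0 to 3 for the striatum (4 as reported). Among the gene lists, the fit on the 2 groups alone moved the number of members at an unadjusted p under 0.05 from 5 to 9 for interferon genes, 2 to 5 for Kupffer cell markers and 2 to 4 for guanylate binding proteins (higher), and from 2 to 9 for cholesterol and 0 to 3 for both fatty acid and bile acid synthesis (lower). Over all genes, the number at that level in either direction moved from 532 to 1010 in the same fit. The cause of these shifts was not tested.

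The animal number recurs across tissues, and with it as a replicate block the interaction calls were 1 for each region, Ciart. Deviations of libraries of the same number had a mean correlation of -0.00781 (prefrontal cortex) and -0.00277 (striatum), against 0.00222 and 0.000646 for different numbers. Of 8 liver libraries, 1 and 3 correlated best with their own number. The deviations were taken from group means, which holds the mean over all pairs near 0, and covered all genes tested. These values therefore cannot decide whether libraries of the same number share deviations in some genes.

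Trib1 and Usp2 were higher at 0.1 mg/kg than in vehicle in all 15 settings, and 11 of 145 named genes, none of which had passed, changed sign in some setting. With 4 libraries a group, the test recovered few 2-fold changes in simulated counts, so genes that did not pass are not shown to be unchanged.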
